A study of Mus musculus with 12 samples.

Results

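The 8 genes described here encode proteins that the mouse oocyte secretes or stores for secretion: the zona pellucida glycoproteins Zp1, Zp2 and Zp3, the growth factors Gdf9 and Bmp15, the oocyte-secreted protein Oosp1, the metalloprotease Astl and the serine protease Plat. They were chosen by name, with earlier results of these data known, as 8 of the 23284 genes in the count tables. All 8 passed the filter on low counts at both stages. Their RNA was followed in early 2C and 4C C57/Bl6 embryos (C57BL/6J in the protocol) that had all been injected as zygotes with an antisense oligonucleotide (ASO) at 0.75 mM. The 4 groups were early 2C embryos with LINE1 ASO, early 2C embryos with RC ASO, 4C embryos with LINE1 ASO and 4C embryos with RC ASO, with 3 libraries each. LINE1 is a retrotransposon family whose RNA is abundant in the early mouse embryo; the RC ASO is named as the control, its letters are not spelled out, and no uninjected embryos were among the 12 libraries. Zygotes came from superovulated females of 5 to 8 weeks, given PMSG and then hCG at 7.5 IU each, 48 h apart, and mated with males of 2 to 6 months. Early 2C embryos were taken about 33 h after hCG, which was about 9 h after injection, and 4C embryos after 2 days in culture. The comparison asks how LINE1 inhibition changes gene expression at each stage. LINE1 RNA itself was not analysed here, so the effect of the ASO on its target was not checked.

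The zona pellucida is the glycoprotein coat that the growing oocyte lays down around itself. ZP2 and ZP3 form its filaments, ZP1 cross-links them, and sperm bind ZP2. At fertilization the cortical granules release ovastacin, the product of Astl, which cleaves ZP2 and so blocks further sperm binding. GDF9 and BMP15 are ligands of the TGF-beta superfamily through which the oocyte steers the surrounding granulosa and cumulus cells. Plat encodes tissue plasminogen activator, whose mRNA is kept dormant in mouse oocytes and translated during meiotic maturation. Maternal mRNAs of this kind are made before ovulation, and most are degraded around the 2-cell stage while the embryo's own genome becomes active.

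Promoter sequence is shown for the members with an entry in the RefSeq table of mouse build GRCm38.p6, because the oocyte factor FIGLA is known to act on mouse zona genes through the E-box, CANNTG. Entries were found for 4 of the 8 members: Zp3 on the plus strand at chr5:135979855-135980154, Bmp15 on the minus strand at chrX:6320675-6320974, Oosp1 on the minus strand at chr19:11691002-11691301, and Astl on the plus strand with 2 starts, at chr2:127338389-127338688 and chr2:127341386-127341685. Each window runs 5′ to 3′ from 250 bases before the start to 50 bases after it, and capitals mark every CANNTG.
Zp3: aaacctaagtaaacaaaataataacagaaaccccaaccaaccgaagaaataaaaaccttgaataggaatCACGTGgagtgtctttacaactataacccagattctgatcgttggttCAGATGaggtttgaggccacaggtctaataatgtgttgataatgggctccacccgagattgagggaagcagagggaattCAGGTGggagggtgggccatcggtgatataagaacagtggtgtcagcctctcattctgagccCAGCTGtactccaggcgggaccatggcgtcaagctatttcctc
Bmp15: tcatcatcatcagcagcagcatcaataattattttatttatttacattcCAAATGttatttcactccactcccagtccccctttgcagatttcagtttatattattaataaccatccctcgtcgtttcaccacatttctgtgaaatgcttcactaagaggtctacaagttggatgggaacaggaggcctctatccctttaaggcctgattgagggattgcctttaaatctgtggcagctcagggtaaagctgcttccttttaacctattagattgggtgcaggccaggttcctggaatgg
Oosp1: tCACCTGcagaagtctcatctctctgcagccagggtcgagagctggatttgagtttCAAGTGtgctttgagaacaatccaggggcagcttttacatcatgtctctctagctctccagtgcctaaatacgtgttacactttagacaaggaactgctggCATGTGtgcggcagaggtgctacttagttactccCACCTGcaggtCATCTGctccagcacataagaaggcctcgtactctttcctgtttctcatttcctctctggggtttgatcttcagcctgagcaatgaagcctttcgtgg
Astl start 1: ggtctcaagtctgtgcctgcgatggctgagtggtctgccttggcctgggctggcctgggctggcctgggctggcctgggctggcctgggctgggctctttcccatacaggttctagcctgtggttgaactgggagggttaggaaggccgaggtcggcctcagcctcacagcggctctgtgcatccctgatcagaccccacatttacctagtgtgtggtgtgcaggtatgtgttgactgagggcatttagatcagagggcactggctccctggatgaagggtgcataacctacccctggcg
Astl start 2: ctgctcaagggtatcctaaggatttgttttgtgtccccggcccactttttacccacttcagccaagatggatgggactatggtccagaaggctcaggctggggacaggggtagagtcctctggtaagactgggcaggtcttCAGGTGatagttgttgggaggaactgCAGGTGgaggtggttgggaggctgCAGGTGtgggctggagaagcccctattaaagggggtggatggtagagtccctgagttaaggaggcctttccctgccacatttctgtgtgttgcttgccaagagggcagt
Oosp1 has 5 matches, Zp3 has 4, the second start of Astl has 3, Bmp15 has 1 and the first start of Astl has 0. Of the 32817 promoters in the table, 72.3% hold at least 1 such match, 17.6% at least 3, 6.49% at least 4 and 2.10% at least 5.

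The 3 matches at the second Astl start are all CAGGTG, at 109, 83 and 59 bases before the start, and 0.366% of all promoters have at least 3 copies of that form counted on both strands. Oosp1 has the same form on the other strand, CACCTG, at 249 and 59 bases before its start, and 2.88% of promoters have at least 2. Zp3 has 1 copy 55 bases before its start, where 20.2% have at least 1, and a CACGTG at 181 bases, found in 7.15%. These forms are all contained in CANNTG. The letters TAATTA occur in the Bmp15 window, 225 bases before the start, and in 5.30% of promoters; TAATTG, present in 8.00%, was not in the 5 windows. TATAA on either strand, found in 24.9%, occurs at 160 and 29 bases before the Zp3 start and at 154 bases before that of Bmp15. A match is given as letters only; no binding was measured. Zp1 lies on chromosome 19, Zp2 on 7, Gdf9 on 11 and Plat on 8.

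The libraries held between 19160716 and 51854939 counts, and the lowest count of any member in any library was 127, for Astl at 4C. In GENCODE M21, a GRCm38 annotation, no member shares an exon with another gene. Nothing in the labels says that the 3 libraries of a group came from separate pools of embryos, so the variation behind each p-value is that of these libraries and may be technical in part. The 15 marker genes of cumulus and granulosa cells together reached 25.8 to 59.8 CPM (counts scaled to a common library size) in a library; Amhr2 with up to 46.5 CPM and Cyp19a1 with up to 24.9 CPM were the highest, and Inha was at 0 in every library. The 14 sperm genes summed to 2.25 to 26.9 CPM, with Spam1 at up to 17.0 CPM, and the 5 blood genes to at most 1.39 CPM. In bulk embryo RNA, fewer cells with a transcript and less of it per cell cannot be told apart.

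At early 2C the members spanned a wide range of levels, which are compared as CPM per kilobase of the longest annotated coding transcript. In LINE1 ASO embryos Bmp15 had the highest level, 549 ± 68.8 CPM per kb (SD, n = 3 for each value in this paragraph), then Oosp1 with 481 ± 28.0, Gdf9 with 280 ± 41.0, Plat with 68.6 ± 8.32, Zp2 with 64.1 ± 1.30, Zp3 with 31.2 ± 1.37, Zp1 with 17.9 ± 2.15 and Astl with 8.68 ± 1.97. In RC ASO embryos Oosp1 came first, with 546 ± 64.1 CPM per kb, then Bmp15 with 479 ± 12.2, Gdf9 with 274 ± 69.4, Zp2 with 77.5 ± 13.0, Plat with 70.5 ± 10.6, Zp3 with 33.0 ± 6.92, Zp1 with 19.3 ± 3.36 and Astl with 10.5 ± 2.88. The secreted factors Oosp1, Bmp15 and Gdf9 were thus above the zona genes and the 2 proteases in both groups. Neighbouring pairs whose RC ASO libraries overlapped, Oosp1 with Bmp15 and Zp2 with Plat, did not differ beyond their spread, and both pairs stood in the other order in LINE1 ASO embryos.

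**Figure D1:**
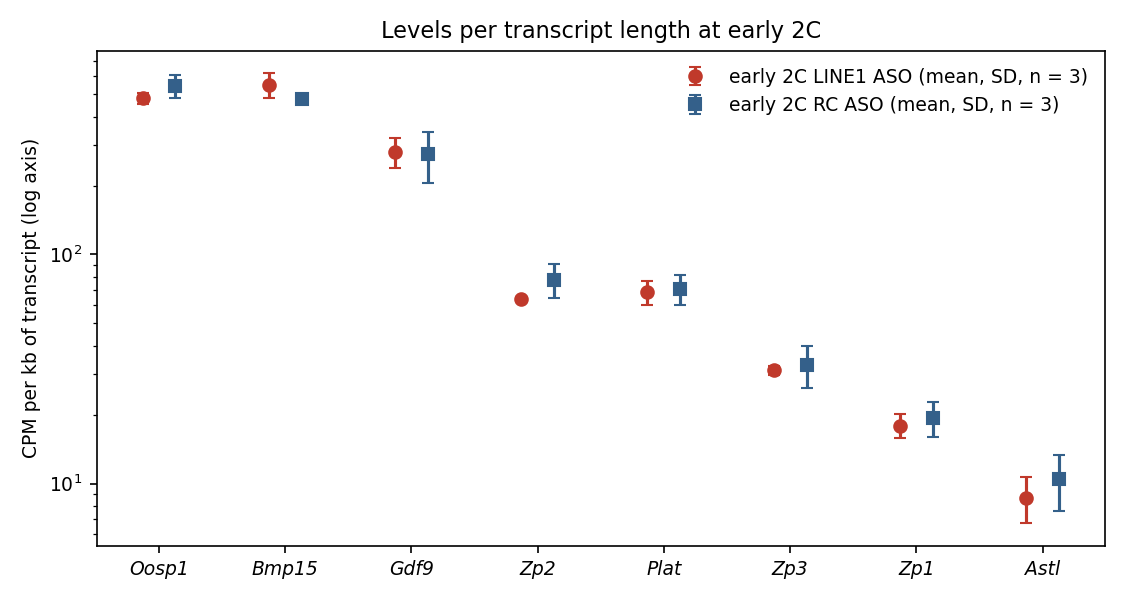
Level of each member at early 2C in CPM per kb of transcript on a log axis, as the mean with SD of 3 libraries for LINE1 ASO and RC ASO embryos. Oosp1, Bmp15 and Gdf9 lie between 274 and 549 CPM per kb, and Astl is lowest at 8.68 in LINE1 ASO and 10.5 in RC ASO embryos.

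By 4C the order had changed. In LINE1 ASO embryos Gdf9 was highest, with 58.3 ± 10.6 CPM per kb (SD, n = 3 for each value in this paragraph), followed by Plat with 45.3 ± 2.34, Oosp1 with 35.8 ± 22.0, Zp3 with 30.4 ± 1.15, Bmp15 with 20.1 ± 5.16, Zp2 with 17.1 ± 2.62, Zp1 with 8.76 ± 1.25 and Astl with 4.46 ± 0.395. In RC ASO embryos Gdf9 had 39.1 ± 5.49 CPM per kb, Plat 34.7 ± 2.62, Zp3 30.3 ± 3.75, Zp2 15.3 ± 3.40, Oosp1 12.7 ± 3.40, Bmp15 12.2 ± 1.56, Zp1 7.49 ± 1.05 and Astl 3.55 ± 0.684. Oosp1 and Bmp15, at the head of the order at early 2C, stood below Zp3 in RC ASO embryos at 4C. In RC ASO embryos the neighbours Gdf9 and Plat, Plat and Zp3, Zp2 and Oosp1, and Oosp1 and Bmp15 overlapped between libraries, while Zp3 stood clear of Zp2, Bmp15 of Zp1, and Zp1 of Astl.

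Between the stages, 7 of the 8 members fell in each ASO group, by edgeR's quasi-likelihood test on all 12 libraries with p-values adjusted (Benjamini-Hochberg) over 15760 genes and called at an adjusted p under 0.05. Over all genes tested, 34.2% fell and 37.6% rose at 4C in LINE1 ASO embryos, and 36.6% fell and 36.1% rose in RC ASO embryos, so a decline was common, and all counts are relative to each library's total. The members' median log2 fold change, 4C over early 2C, was -1.70 in LINE1 ASO and -2.24 in RC ASO embryos, beside 0.24 and 0.09 over all genes tested in those same groups. When transcript length and GC content were corrected for, the members' medians were -2.11 in LINE1 ASO and -2.27 in RC ASO embryos, beside -0.05 and -0.02 over all genes. The 2 contrasts share no library.

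By mean 4C level relative to early 2C, the growth factors and Oosp1 fell most, though Gdf9 was not clear of Zp2. These percentages compare scaled counts, not amounts of RNA per embryo. Oosp1, a small secreted oocyte protein, was at 6.36% of its early 2C level at 4C in LINE1 ASO embryos, with libraries at 10.9%, 4.85% and 3.33%, and at 1.92% in RC ASO embryos, with libraries at 1.33%, 1.98% and 2.45%. Its log2 fold change was -3.98 (SE 0.351, adjusted p = 5.71e-08) with LINE1 ASO and -5.70 (SE 0.384, adjusted p = 2.14e-09) with RC ASO; without 4C LINE1 ASO replicate 1 the LINE1 ASO value was -4.61. All 3 LINE1 ASO libraries lay above all 3 RC ASO libraries. Bmp15 was at 3.12% in LINE1 ASO embryos, with libraries at 3.73%, 3.52% and 2.12%. In RC ASO embryos it was at 2.09%, with libraries at 1.77%, 2.28% and 2.22%. LINE1 ASO replicate 3 of Bmp15 lay among the RC ASO ones. Its log2 fold change was -5.00 (SE 0.216, adjusted p = 2.38e-11) with LINE1 ASO and -5.58 (SE 0.223, adjusted p = 9.27e-12) with RC ASO. Gdf9, whose product pairs with that of Bmp15, stood at higher percentages. It was at 17.7% with LINE1 ASO (14.5% to 21.6%) and 11.7% with RC ASO (9.59% to 13.3%). The Zp2 libraries overlapped with these, at 18.0% to 25.4% with LINE1 ASO and 12.1% to 20.3% with RC ASO.

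Within the zona pellucida the 3 genes stood at different shares of their early 2C level, in the order Zp3, Zp1 and Zp2. In each ASO group the libraries of the 3 did not overlap. Zp2 was at 22.7% of its early 2C level in LINE1 ASO embryos (log2 fold change -2.14, SE 0.203, adjusted p = 1.31e-07) and at 16.2% in RC ASO embryos (-2.63, SE 0.207, adjusted p = 1.30e-08). Zp1 was at 41.6% (-1.27, SE 0.220, adjusted p = 9.01e-05) in LINE1 ASO and 31.7% (-1.66, SE 0.223, adjusted p = 6.06e-06) in RC ASO embryos. Zp3 did not pass the test in either: it was at 82.5% in LINE1 ASO embryos (-0.28, SE 0.189, adjusted p = 0.197) and 75.4% in RC ASO embryos (-0.41, SE 0.189, adjusted p = 0.0638). The 95% intervals of the log2 fold change of Zp3, -0.68 to 0.12 with LINE1 ASO and -0.81 to -0.01 with RC ASO, do not reach the values of Zp1 or Zp2.

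The values of Zp3 and Zp1 depend on how transcript length and GC content are treated. With a correction for both, Zp1 had a log2 fold change of -2.02 in LINE1 ASO and -2.07 in RC ASO embryos, and Zp3 fell in both groups, with log2 fold changes of -1.33 in LINE1 ASO embryos (adjusted p = 8.98e-06) and -1.13 in RC ASO embryos (adjusted p = 4.77e-05). Without early 2C RC ASO replicate 1 it also passed in RC ASO embryos (-0.49, adjusted p = 0.0463), as it did without 4C RC ASO replicate 3 (-0.55, adjusted p = 0.0261) and with DESeq2 (-0.42, adjusted p = 0.0347). In LINE1 ASO embryos Zp3 passed without early 2C RC ASO replicate 2 (-0.43, adjusted p = 0.0402) and in a fit of the 6 LINE1 ASO libraries alone (-0.42, adjusted p = 0.0413).

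The 2 proteases stood at larger shares of their early 2C level than the growth factors. Astl was at 43.6% of its early 2C level in LINE1 ASO embryos (log2 fold change -1.20, SE 0.275, adjusted p = 0.00110) and 27.7% in RC ASO embryos (-1.85, SE 0.281, adjusted p = 2.24e-05). Plat was at 56.2% (-0.83, SE 0.153, adjusted p = 1.53e-04) in LINE1 ASO embryos and 40.3% (-1.31, SE 0.154, adjusted p = 1.38e-06) in RC ASO embryos. Without the length and GC correction, Plat stood at the largest share of its early 2C level after Zp3 in both groups. With the correction Zp3 had a log2 fold change of -1.33 in LINE1 ASO embryos, a larger fall than Plat showed in any alternative. In RC ASO embryos the corrected value of Zp3, -1.13, lay within the range of Plat over the alternatives. The order of Zp3 and Plat thus depends on the correction in LINE1 ASO embryos and is not settled in RC ASO embryos.

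**Figure D2:**
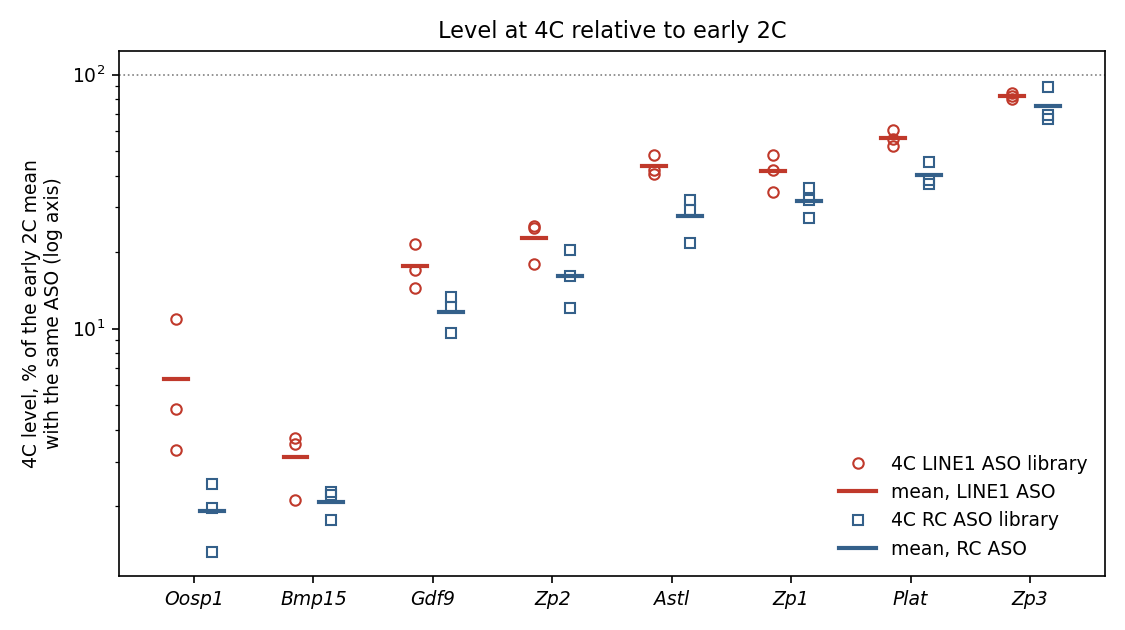
Level at 4C as a percentage of the early 2C mean with the same ASO, on a log axis, for each 4C library (circles LINE1 ASO, squares RC ASO) and as the mean (bars), on a scale set over all 12 libraries. Oosp1 and Bmp15 lie lowest, at 1.92% and 2.09% in RC ASO embryos, and Zp3 highest, at 75.4%.

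At early 2C, about 9 h after injection, 0 of the 8 members differed between LINE1 ASO and RC ASO embryos in edgeR's test on the 6 libraries of that stage, where 0.367% of 13625 genes were called. DESeq2 also called 0, and 2 members had an unadjusted p under 0.05, against 8.84% of all genes. The members' median log2 fold change was -0.09, beside -0.01 over all genes. Bmp15 had 1911, 1636 and 1497 CPM in LINE1 ASO libraries 1 to 3, against 1496, 1423 and 1476 CPM in RC ASO libraries. The groups just missed each other, and the log2 fold change was 0.20 (SE 0.0925, adjusted p = 0.546). Zp2 had 141, 143 and 146 CPM in LINE1 ASO libraries, against 156, 207 and 156 CPM in RC ASO libraries. Every LINE1 ASO library was below every RC ASO library, with -0.27 as log2 fold change (SE 0.108, adjusted p = 0.427). Of all genes tested, 7.49% had such separate groups with LINE1 ASO higher and 6.67% with it lower.

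The other 6 members overlapped at early 2C. Oosp1 averaged 468 ± 27.2 CPM in LINE1 ASO and 531 ± 62.4 CPM in RC ASO embryos (SD, n = 3 each), with a log2 fold change of -0.18 (SE 0.0948). Gdf9 averaged 502 ± 73.6 CPM in LINE1 ASO and 491 ± 124 CPM in RC ASO embryos. Plat averaged 173 ± 21.0 CPM in LINE1 ASO and 178 ± 26.8 CPM in RC ASO embryos. Zp1, Zp3 and Astl had log2 fold changes of -0.11, -0.08 and -0.27. The 95% interval of the log2 difference of Astl, -0.68 to 0.13, was the widest of the 8, and that of Oosp1 ran from -0.38 to 0.02.

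**Figure D3:**
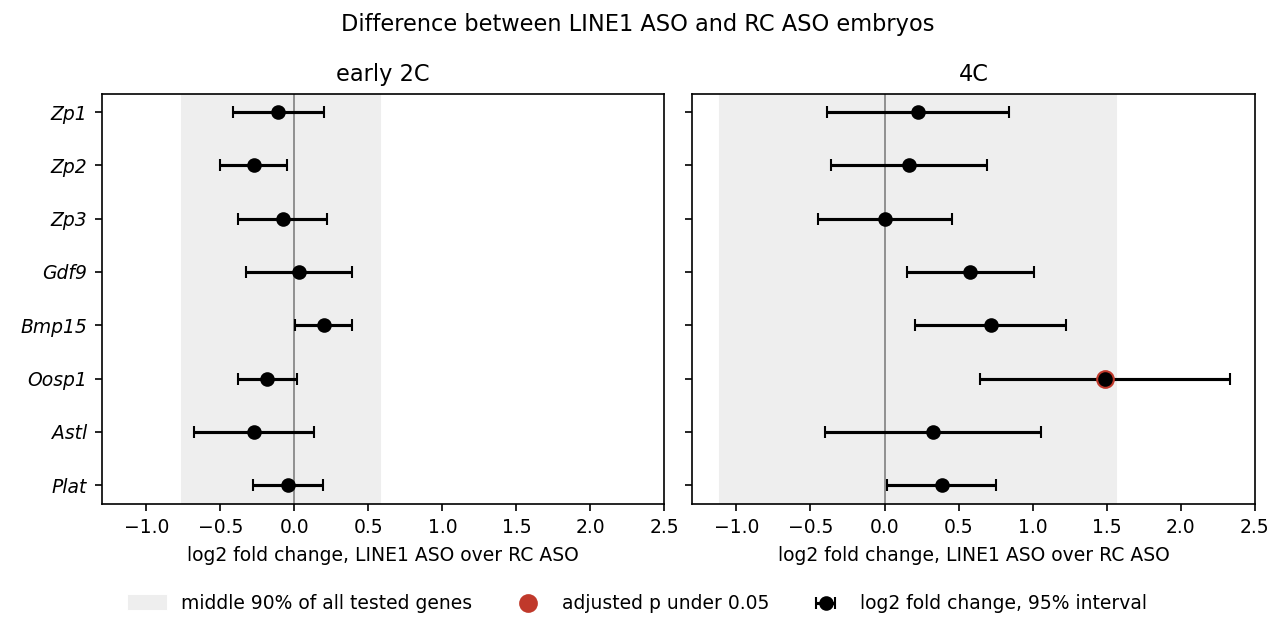
Log2 fold change of LINE1 ASO over RC ASO with its 95% interval for each member at early 2C (left) and 4C (right). The grey band spans the middle 90% of all genes tested, and the larger red point has an adjusted p under 0.05. At 4C Oosp1 stands at 1.49 and Zp3 at 0.0030.

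At 4C, Oosp1 was higher in LINE1 ASO embryos and was the 1 member of the 8 called, in edgeR's test on the 6 libraries of that stage. It had 59.2, 26.2 and 19.0 CPM in LINE1 ASO libraries 1 to 3, against 8.78, 13.1 and 15.3 CPM in RC ASO libraries. Every LINE1 ASO library was above every RC ASO library, and LINE1 ASO replicate 1 was far above the other two. The log2 fold change was 1.49 (SE 0.392, adjusted p = 0.0475, 95% interval 0.65 to 2.33), where 1.93% of 14231 genes were called higher, 2.61% lower, and 5.55% had a larger log2 fold change. With a replicate block the log2 fold change was 1.33 and the call was lost (adjusted p = 0.0506). The call was also lost without 4C LINE1 ASO replicate 1 (log2 fold change 0.87, adjusted p = 0.254), without LINE1 ASO replicate 2 (1.66, adjusted p = 0.0888), and without RC ASO replicate 1 (1.29, adjusted p = 0.192), 2 (1.53, adjusted p = 0.112) or 3 (1.67, adjusted p = 0.101). Leaving out each of those 5 libraries also cut the calls over all genes to between 4 and 117, from 645 with every library; without LINE1 ASO replicate 3 there were 2126, and Oosp1 was called (log2 fold change 1.74, adjusted p = 0.00495).

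Gdf9, Bmp15 and Plat were also higher in every LINE1 ASO library than in any RC ASO library at 4C, without passing the threshold. Gdf9 had 126, 98.9 and 89.0 CPM in LINE1 ASO libraries, against 58.7, 74.4 and 76.9 CPM in RC ASO libraries, with 0.58 as log2 fold change (SE 0.200, adjusted p = 0.106). Bmp15 had 72.8, 68.3 and 43.5 CPM in LINE1 ASO libraries, against 32.3, 41.7 and 38.2 CPM in RC ASO libraries, with 0.72 as log2 fold change (SE 0.237, adjusted p = 0.0947). Its LINE1 ASO replicate 3 lay close to the RC ASO ones. Without that library Bmp15 passed the threshold (0.87, adjusted p = 0.0135), and so did Gdf9 (0.64, adjusted p = 0.0447). Plat had 121, 111 and 111 CPM in LINE1 ASO libraries, against 82.5, 85.3 and 95.0 CPM in RC ASO libraries, with 0.39 as log2 fold change (SE 0.172, adjusted p = 0.209). Separate groups with LINE1 ASO higher were thus seen in 4 of the 8 members and in 14.4% of all genes tested; an unadjusted p under 0.05 was found for 4 members and 22.2% of all genes.

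The zona genes and Astl overlapped between the groups at 4C. Zp3 had 38.6, 40.2 and 41.7 CPM in LINE1 ASO libraries, against 36.5, 37.9 and 45.8 CPM in RC ASO libraries. Its log2 fold change was 0.0030 (SE 0.211), with a 95% interval of -0.45 to 0.46, and its sign turned with DESeq2 size factors (-0.017) and with the length and GC correction (-0.15). Zp2 had 42.2, 41.0 and 31.5 CPM in LINE1 ASO libraries, against 34.7, 26.2 and 41.3 CPM in RC ASO libraries (0.17, SE 0.245). Zp1 averaged 17.2 ± 2.46 CPM in LINE1 ASO and 14.7 ± 2.06 CPM in RC ASO embryos (SD, n = 3 each), with a log2 fold change of 0.23 (SE 0.284). Astl averaged 10.6 ± 0.938 CPM in LINE1 ASO and 8.44 ± 1.63 CPM in RC ASO embryos (0.33, SE 0.339). The median of the 8 members was 0.36, beside 0.05 over all genes tested; it was 0.20 beside -0.07 with the length and GC correction and 0.53 beside 0.23 with library totals.

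**Figure D4:**
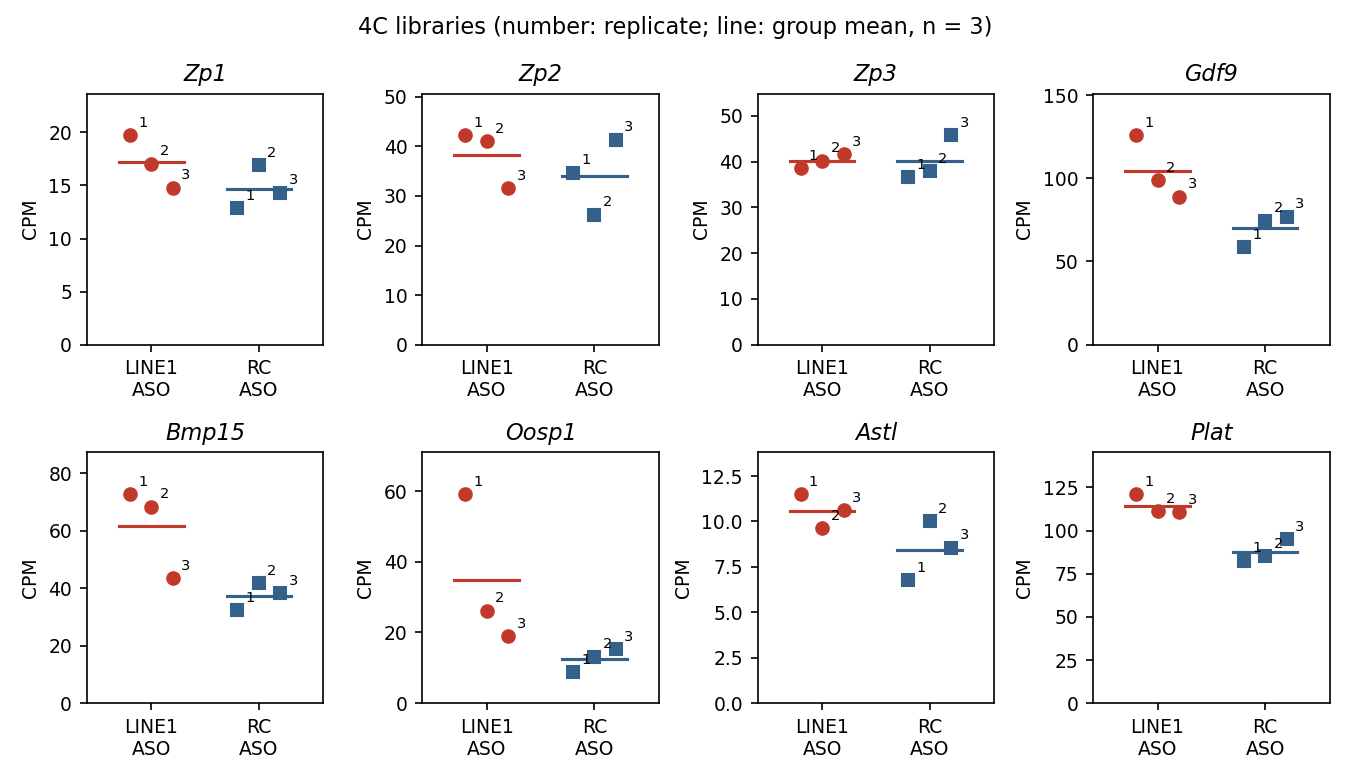
CPM of each member in every 4C library, with the replicate number beside each point and a line at the group mean (n = 3), LINE1 ASO at left and RC ASO at right, axes from 0. Oosp1 spans 19.0 to 59.2 CPM in LINE1 ASO and 8.78 to 15.3 CPM in RC ASO libraries, and the Zp3 groups overlap.

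Of the genes that mark the embryo's stage, the later cleavage list was lower in sum in LINE1 ASO embryos at 4C. The 6 later cleavage genes summed to 319 to 682 CPM in LINE1 ASO libraries, against 896 to 1273 CPM in RC ASO libraries. The groups did not overlap. Of the 6, 3 were called lower, against 2.61% of all genes tested. These were Tdgf1 (log2 fold change -2.71, adjusted p = 0.0172), Klf2 (-1.21, adjusted p = 0.0240) and Tfap2c (-1.07, adjusted p = 0.0177). Klf5, with 170 ± 123 CPM in LINE1 ASO and 395 ± 93.4 CPM in RC ASO embryos (SD, n = 3 each), was not called. Upp1 stood the other way, with 2.59 ± 1.13 CPM in LINE1 ASO and 1.93 ± 1.06 CPM in RC ASO embryos. Its means were higher at early 2C, 5.30 CPM in LINE1 ASO and 8.07 CPM in RC ASO embryos, unlike a later cleavage gene. The 6 early 2C genes, Zscan4c and Dux among them, summed to 34.3 to 230 CPM in LINE1 ASO libraries. In RC ASO libraries they summed to 11.6 to 56.7 CPM, so the groups overlapped. By edgeR 0 of the 6 were called, and 4 had an unadjusted p under 0.05, all higher, against 22.2% of all genes. DESeq2 called 2 of the 6, beside 1511 calls among 18393 genes. At early 2C the same lists overlapped: the early 2C genes summed to 62.9 to 78.7 CPM in LINE1 ASO and 72.5 to 80.6 CPM in RC ASO libraries. The part of stage in the 4C differences of the members was not tested.

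Whether the LINE1 ASO log2 difference at 4C differed from that at early 2C was tested as an interaction on all 12 libraries. A positive value means a more positive difference at 4C, not necessarily one larger in size. The test called 0 of the 8 members, where 1.12% of 15760 genes were called. Oosp1 came nearest, with an interaction of 1.73 on the log2 scale (SE 0.451, adjusted p = 0.0717). It was called with DESeq2 (1.65, adjusted p = 0.0150), with library totals in place of normalization factors (1.87, adjusted p = 0.0497) and without 4C LINE1 ASO replicate 3 (2.03, adjusted p = 0.00333), when Bmp15 was called as well (0.79, adjusted p = 0.0169). The values were 0.60 for Gdf9, 0.58 for Bmp15, 0.48 for Plat, 0.65 for Astl, 0.49 for Zp2, 0.39 for Zp1 and 0.13 for Zp3. The median of the 8 was 0.54, beside 0.19 over all genes. With the length and GC correction it was 0.27, beside -0.03, and Zp1 stood at 0.05. Without the correction 4 members had an unadjusted p under 0.05, against 17.5% of all genes. The interaction uses the same libraries as the stage and ASO comparisons and adds no separate samples.

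A list of 23 genes of TGF-beta superfamily signalling, mostly receptors, processing enzymes and SMADs, was set beside Gdf9 and Bmp15. Of these, 18 were tested at each stage between the ASOs, and 1, Smad3, was higher at both. SMAD3 carries the GDF9 signal to the nucleus. It averaged 334 ± 32.6 CPM in LINE1 ASO and 242 ± 5.30 CPM in RC ASO embryos at early 2C (SD, n = 3 each), with 0.46 as log2 fold change (SE 0.0913, adjusted p = 0.0270). At 4C it averaged 62.8 ± 19.1 CPM in LINE1 ASO and 31.2 ± 3.56 CPM in RC ASO embryos, with 1.01 as log2 fold change (SE 0.252, adjusted p = 0.0414). The early 2C call of Smad3 was lost without RC ASO replicate 1 or 3 or LINE1 ASO replicate 1 or 2 (adjusted p 0.0827 to 0.490). Its 4C call was lost without any 1 of the 6 libraries other than LINE1 ASO replicate 3 (adjusted p 0.0842 to 0.172) and with the length and GC correction (0.84, adjusted p = 0.0688). Bmpr1b, a type I receptor, had 54.1 ± 19.0 CPM in LINE1 ASO and 29.8 ± 3.66 CPM in RC ASO embryos at 4C (log2 fold change 0.86, adjusted p = 0.0774). DESeq2 called 3 at 4C, all higher: Smad3, Bmpr1b and Furin, a proprotein convertase. Over all genes, DESeq2 called 173 of 19187 at early 2C and 1511 of 18393 at 4C. By edgeR, an unadjusted p under 0.05 was found for 8.84% of all genes at early 2C and 22.2% at 4C. These shares also apply to the counts of the lists below. Between early 2C and 4C, 19 of the list were tested, of which 5 rose and 8 fell in LINE1 ASO embryos, and 7 rose and 9 fell in RC ASO embryos. Smad3 and Bmpr1b both had a log2 fold change of -3.25 in RC ASO embryos.

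Among the 10 genes of the plasminogen system, which acts with Plat, edgeR called 0 between the ASOs among the 5 tested at early 2C and the 8 tested at 4C. At early 2C 0 had an unadjusted p under 0.05 and DESeq2 called 0. At 4C 2 were higher and 1 lower at an unadjusted p under 0.05, against 22.2% of all genes. DESeq2 called 2 there, Lrp1 and Serpine2. Lrp1, the endocytic receptor that clears plasminogen activators bound to their inhibitors, had 98.5 ± 24.0 CPM in LINE1 ASO and 54.7 ± 13.7 CPM in RC ASO embryos at 4C (SD, n = 3 each; log2 fold change 0.85, adjusted p = 0.0597). Serpine2, a serpin that inhibits tissue plasminogen activator, had a log2 fold change of 1.16 there (adjusted p = 0.0774). Across stages 3 of 8 rose and 3 fell in LINE1 ASO embryos, and 2 rose and 3 fell in RC ASO embryos; in the RC ASO group Lrp1 fell by 3.11 and Serpine2 fell by 2.92 on the log2 scale.

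For the cortical granule exocytosis list, to which the release of ovastacin belongs, 14 of 16 genes were tested at early 2C with 0 called by edgeR or DESeq2 and 1 higher and 1 lower at an unadjusted p under 0.05, and 15 at 4C with 1 called higher. That gene was Vamp2, a vesicle SNARE, with 13.5 ± 4.17 CPM in LINE1 ASO and 4.36 ± 1.17 CPM in RC ASO embryos (SD, n = 3 each; log2 fold change 1.63, adjusted p = 0.0373); the call was lost without each of the 6 libraries in turn (adjusted p 0.0531 to 0.144). Nsf, the ATPase that takes SNARE complexes apart, and Rab27a, a GTPase of secretory granules, had log2 fold changes of 0.40 and 0.51 at 4C (adjusted p = 0.247 and 0.214). Across stages 4 of 15 rose and 5 fell in LINE1 ASO embryos, and 2 rose and 6 fell in RC ASO embryos; in the RC ASO group Nsf fell by 3.10 and Rab27a fell by 2.09 on the log2 scale.

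Other egg surface and secreted products showed 0 calls by edgeR or DESeq2 among 8 tested at early 2C, with 1 lower at an unadjusted p under 0.05, and edgeR called 1 higher among 8 at 4C. That was Cd81, a tetraspanin of the egg surface, with 8.45 ± 1.74 CPM in LINE1 ASO and 0.359 ± 0.251 CPM in RC ASO embryos (SD, n = 3 each; log2 fold change 4.51, adjusted p = 0.0105). Cd81 was not tested at early 2C, where it averaged 0.290 CPM in LINE1 ASO and 0.129 CPM in RC ASO embryos. Its RC ASO level at 4C was likewise near 0, so it passed the low-count filter through the LINE1 ASO libraries. The size of its fold change is therefore uncertain. The call of Cd81 was lost without RC ASO replicate 1 (4.25, adjusted p = 0.0670). Cd9, the tetraspanin needed for sperm fusion, stood the other way, with 80.7 ± 29.1 CPM in LINE1 ASO and 142 ± 27.4 CPM in RC ASO embryos (SD, n = 3 each; -0.82, adjusted p = 0.0827 by edgeR), and DESeq2 called Cd81 higher and Cd9 lower. Gm97, which RefSeq lists as a synonym of Oosp3, had 3.60 ± 2.25 CPM in LINE1 ASO and 0.935 ± 0.490 CPM in RC ASO embryos at 4C (1.94, adjusted p = 0.165). Between the stages 2 of 9 rose and 7 fell in LINE1 ASO embryos, and 1 rose and 7 fell in RC ASO embryos; in the RC ASO group Gm97 fell by 7.93 and the ligand Bmp6 fell by 3.40 on the log2 scale.

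Of 8 oocyte transcription factors, 6 fell and 1 rose between early 2C and 4C in both LINE1 ASO and RC ASO embryos. In RC ASO embryos Foxo3, which holds primordial follicles dormant, fell by 2.43, and Taf4b, a gonadal subunit of the TFIID complex, rose by 2.42 on the log2 scale. Between the ASOs 0 of 8 were called at early 2C by edgeR or DESeq2, with 1 lower at an unadjusted p under 0.05, and 1 of 7 at 4C: Taf4b was lower, with 147 ± 56.4 CPM in LINE1 ASO and 312 ± 42.8 CPM in RC ASO embryos (SD, n = 3 each; log2 fold change -1.09, adjusted p = 0.0280). That call was lost without any 1 of the 6 libraries other than LINE1 ASO replicate 3 (adjusted p 0.0833 to 0.117).

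Maternal mRNA storage and decay genes were all tested, and between the stages 20 of 28 fell and 6 rose in LINE1 ASO embryos, while 20 fell and 5 rose in RC ASO embryos. In RC ASO embryos Btg4, the adaptor that brings the CCR4-NOT deadenylase to maternal mRNAs, fell by 5.34, and Eif4enif1, a translational repressor, fell by 2.80 on the log2 scale. Dcp1a, an activator of mRNA decapping, was the gene of the list that edgeR called between the ASOs, at both stages. It averaged 1386 ± 220 CPM in LINE1 ASO and 630 ± 79.3 CPM in RC ASO embryos at early 2C (SD, n = 3 each; log2 fold change 1.14, adjusted p = 4.24e-05). At 4C the averages were 214 ± 91.3 CPM in LINE1 ASO and 82.4 ± 1.11 CPM in RC ASO embryos (1.38, adjusted p = 0.0203), a call lost without any 1 of the 6 libraries other than LINE1 ASO replicate 3 (adjusted p 0.0729 to 0.107). DESeq2 called 2 of the list higher at 4C, Dcp1a and Cnot6l, a CCR4-NOT deadenylase subunit that had a log2 fold change of 0.69 by edgeR (adjusted p = 0.0607). In the fit of all 12 libraries the early 2C call was lost for Dcp1a (adjusted p = 0.266) and for Smad3 (adjusted p = 0.939).

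A further 21 oocyte-enriched transcripts served as a comparison for the members. Between the stages 19 of 21 fell and 0 rose in LINE1 ASO embryos, and 18 fell and 2 rose in RC ASO embryos, the RC ASO group with a median log2 fold change of -3.66; Spin1, a spindle-associated maternal protein, fell by 4.19, and Dppa3, which protects the maternal genome from demethylation, rose by 0.64. Between the ASOs edgeR called 0 of 21 at either stage. DESeq2 called 1 lower at early 2C, Tle6, a maternal-effect gene, and 0 at 4C; at an unadjusted p under 0.05, 1 was higher and 2 were lower at early 2C, and 3 were higher and 1 lower at 4C. At 4C 16 of 21 had a positive log2 fold change, with a median of 0.40, close to the members' 0.36. Over all genes tested the median was 0.05, and 52.5% had a log2 fold change above 0.0030. Spin1 stood at 0.62 (adjusted p = 0.0993) and Dppa3 at -0.56 (adjusted p = 0.0947).

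In the interaction, edgeR called 0 genes of these 7 lists. Higher here means a more positive LINE1 ASO difference at 4C than at early 2C. An unadjusted p under 0.05 was reached by 17.5% of all genes. By that measure 5 of 19 genes of the receptor and SMAD list and 2 of 8 plasminogen genes were higher. So were 2 of 15 cortical granule genes and 6 of 21 further oocyte transcripts. The egg surface list had 5 higher and 1 lower of 9, the storage and decay list 5 higher and 1 lower of 28, and the transcription factors 1 lower of 8. DESeq2 called Gm97 and Vamp2 higher and Taf4b lower, beside 920 calls among 19868 genes.

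Genes whose profile was most like that of a member were found over the 12 libraries, by the root mean square (RMS) difference of centred log2 CPM among 9788 candidates. Zp1 and Astl were each other's near match, at an RMS difference of 0.15; Zp1 was closest to Hus1 (0.13) and Cenpq (0.14), and Astl, after Zp1, to Tinf2 (0.19). Zp2 lay nearest to Med28 and Lcp1 (0.14 each), Zp3 to Atf4 (0.13) and Capzb (0.14), and Plat to Tmed10 (0.10) and Galnt6 (0.13). Gdf9 lay nearest to Slc35b4 (0.16) and Uvrag (0.17), and Bmp15 to Eif4e1b (0.18) and Plekhg1 (0.20). By RMS difference Oosp1 had the least close neighbours, Hey2 (0.24) and Reep2 (0.28). Their Pearson correlations with Oosp1 were 0.996 for Hey2 and 0.997 for Reep2. The neighbours of Zp3 correlated less well with it, at 0.82 for Atf4 and 0.85 for Capzb. The 12 libraries cover both stages, so these correlations include the difference between the stages. The median candidate differed by 0.98 from Zp3 and by 2.39 from Bmp15. Within the set Zp3 and Bmp15 were the least alike, at 2.51, and Bmp15 and Oosp1 differed by 0.43.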

How the data were processed

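Per the labels' protocols, total RNA from mouse embryos (500 pg per library) was isolated with a PicoPure kit and made into libraries with a SMARTer stranded total RNA kit, read as 50-base single reads over 2 Illumina lanes. Per the submitters' processing notes, Trim Galore 0.4.0, TopHat2 2.0.9, R 3.3.0 and DESeq2 1.12.3 were used with build mm9. The values are raw read counts per gene, as the authors deposited them in 1 table per stage; the tables carry the name featureCounts, and the sources used here give neither its strand setting nor its treatment of multi-mapped reads.

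Members and gene lists were chosen with earlier results of these data known. All members are named throughout; of each list, the 2 genes with the highest mean CPM and up to 2 called ones with the smallest p were named; Furin, Tle6, Cd9, Cnot6l and the stage markers were named after their values were seen. The groups were compared with edgeR 4.0.16 (R 4.3.3): filterByExpr with a minimum count of 10, TMM normalization, robust glmQLFit and glmQLFTest, with p-values adjusted by the Benjamini-Hochberg method across the genes tested. ASO comparisons used the 6 libraries of 1 stage, stage contrasts and interaction all 12. Standard errors are the log2 fold change over the square root of F. CPM is scaled within a stage, and percentages of the early 2C level over all 12 libraries. Transcript lengths came from GENCODE M21, another build than the counts, and matched 22825 of 23284 genes. Profiles were compared on log2 CPM with a prior count of 2, among genes whose early 2C mean was 50 counts or more. Scripts were tested on simulated data. No 2 replicates agreed within sampling noise: chi-square divided by its degrees of freedom was 15.6 to 91.8 for each pair. Alternatives were DESeq2 1.42.0, 2 other normalizations, no filter, a stricter one with a minimum of 50, a replicate block, a length and GC correction, other sets of libraries and leaving out each library. Depth was 19160716 to 51854939 counts per library.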

Additional observations from a re-analysis of the deposited data

How the results depend on the processing

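Member values kept their direction and their side of the threshold in 109 of 120 recomputed values at early 2C, 104 of 120 at 4C, 163 of 168 for each stage contrast and 149 of 160 for the interaction. For all genes at early 2C, 50 were called, against 173 with DESeq2, 207 with no filter, 80 with a replicate block, 90 with that block and a length and GC correction, 2 in a joint fit of 12 libraries and 5 to 110 without 1 library. At 4C, 645 of all genes were called, against 1511, 1108, 1504, 1641 and 1714 in that order and 4 to 2126 without 1 library (2126 without 4C LINE1 ASO replicate 3). The 274 higher and 371 lower calls at 4C became 563 and 239 with library totals, 1099 and 615 in the joint fit and 208 and 549 with the length and GC correction; library totals moved the median log2 fold change of all genes to 0.23, against 0.05. Members called at 4C numbered 1, against 0 with the replicate block (Oosp1 1.33, adjusted p = 0.0506), 2 in the joint fit (Oosp1, and Bmp15 at adjusted p = 0.0162) and 0 to 3 without 1 library. The interaction called 176 of all genes, against 920 with DESeq2, 277 with library totals, 91 with the block and 19 to 1297 without 1 library (1297 without that same library); its 102 higher and 74 lower calls became 80 and 109 with DESeq2 size factors, 224 and 53 with library totals and 63 and 125 with the length and GC correction. It called 0 members, against 1 with DESeq2, 1 with library totals and 0 to 2 without 1 library.

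Reversals were confined to Zp1, Zp3, Gdf9 and Plat, where the main value lay between -0.28 and 0.13 on the log2 scale. At early 2C Zp3 turned to 0.025 with the length and GC correction and 0.032 with the block added, and Plat to 0.0021 and 0.0037. At 4C Zp3 turned to -0.017 with DESeq2 and -0.017 with its size factors, -0.15 with the length and GC correction and -0.15 with the block added. Across stages in LINE1 ASO embryos Zp3 turned to 0.059 with library totals, and its interaction to -0.21 with the length and GC correction and -0.21 with the block added. Without 1 library, early 2C values ran from -0.19 to 0.050 for Zp1, -0.19 to 0.11 for Zp3, -0.11 to 0.25 for Gdf9 and -0.14 to 0.082 for Plat; Zp3 ran from -0.066 to 0.11 at 4C and from -0.21 to 0.27 in the interaction. The causes were not tested. Same-numbered libraries of the 2 ASOs correlated at 0.016 to 0.098 at 4C and -0.027 to 0.022 at early 2C. Differently numbered ones correlated at -0.11 to 0.050 at 4C and -0.044 to 0.061 at early 2C. Whether the numbers pair the libraries is not settled by these values. As a hint from the data, 4 of 6 libraries at 4C and 0 of 6 at early 2C correlated best with their own number. Across stages 6 of 6 did so with LINE1 ASO and 4 of 6 with RC ASO. With 3 libraries a group, Astl, the lowest in counts, had the widest intervals among the members at early 2C.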
